A study of Sus scrofa with 67 samples.

Results

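In the cycling pig, 57 of the 25322 genes in the table rose in the ovary between oestrus and the mid-luteal phase. They had risen by day 3. From oestrus to the mid-luteal phase they stayed within a set range in the endometrium and the oviduct. They were chosen from the data, on CPM, which is the read count of a gene divided by the total of its library and scaled to 1000000. A gene was taken if its mean CPM in the ovary, with 1 added, was at least 4 times as high on day 9 as on day 0, if its mean on day 3 was at least 0.5 of that on day 9, and if the day 9 to day 0 ratio lay between 0.5 and 2 in both other tissues. The ovary values of days 0, 3 and 9, and the endometrium and oviduct values of days 0 and 9, therefore describe the choice and were not tested. With 1 added, genes with few counts in another tissue could rise there and still pass. ENSSSCG00000011685, for instance, held 0, 1 and 0 counts in the oviduct on day 0 and 12, 5 and 8 on day 9. Days 6, 12, 15 and 18 took no part in the choice, and all tests below are on those days.

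The RNA came from crossbred (Landrace × Yorkshire) gilts with at least a pair of earlier normal cycles, aged 6 to 8 months. Poly(A) RNA of whole ovary, of endometrium and of the ampulla of the oviduct was sequenced at steps of 3 days, from the first day of oestrous behaviour (day 0) to day 18. The 66 libraries held 8962103 to 13442083 counted reads, 22 libraries for each tissue and 2 to 4 for each tissue and day. Whole ovary is a mixture of corpora lutea, follicles of several sizes, stroma and vessels, so fewer luteal cells and less RNA in each cell cannot be told apart. Of the 57 genes, 33 have a symbol in the gene name table, and the other 24 are given by identifier only. Those names belong to a later annotation than the gene models that were counted.

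After ovulation, granulosa and theca cells of the follicle become the luteal cells of the corpus luteum, which secretes progesterone. Luteal cells make progesterone from cholesterol, which they take up from lipoproteins and also synthesise. In a pig that is not pregnant, prostaglandin F2α from the uterus ends the life of the corpus luteum late in the cycle, and the next follicles then grow.

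Some ovary libraries stood apart from the others of their day. Among the markers of luteal steroidogenic cells, CYP11A1, the enzyme that makes pregnenolone from cholesterol, SCARB1, the receptor for high-density lipoprotein, and LHCGR, the luteinising hormone receptor, were present in the table, and the other 3 on that list could not be matched. Their summed level was 8397 to 11568 CPM in the 3 libraries of day 6 and 11648 to 16200 CPM in libraries 2, 3 and 4 of day 12. In library 1 of day 12 it was 590.5 CPM, and INHA, an inhibin subunit of granulosa cells, stood at 2284 CPM against 79.3 to 121 CPM in the other 3. Library 1 of day 15 held 1715 CPM of OVGP1, an oviduct secretory protein, and 5217 CPM of DES, a muscle protein, against at most 81.2 and 1812 CPM in the other 3. Some counts without library 1 of day 12 are given below. Library 1 of day 15 was left out by itself only in tests that compare day 15.

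**Figure D1:**
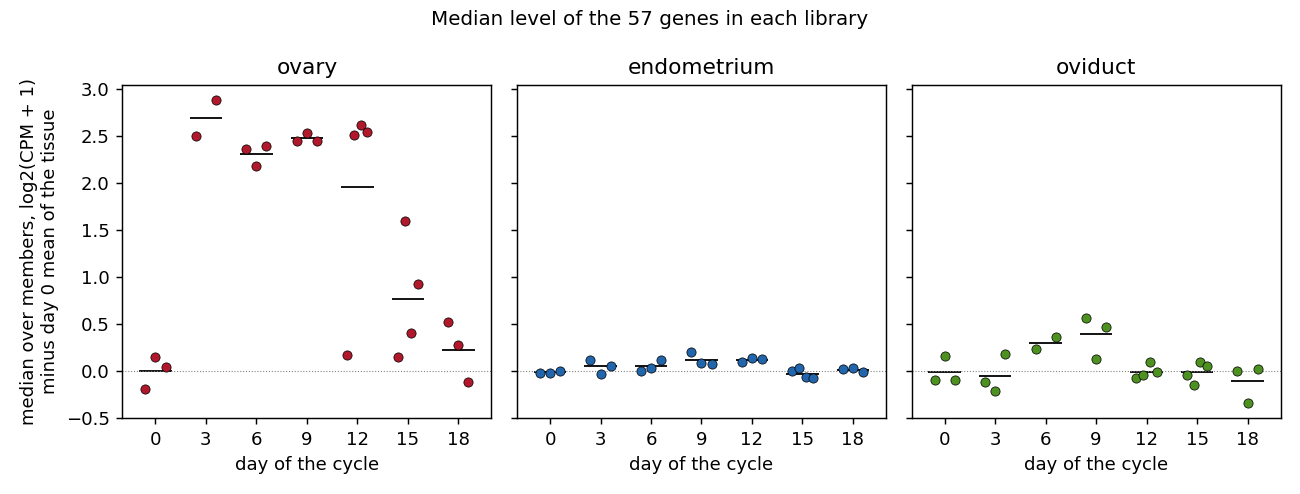
Median over the 57 genes of log2(CPM + 1) minus the day 0 mean of the same tissue (vertical axis), by day of the cycle (horizontal axis). Each point is 1 library and each bar the mean of the libraries of that day. In the ovary, days 3 to 9 lie between 2.18 and 2.88, library 1 of day 12 lies at 0.17, and day 18 lies between -0.12 and 0.52.

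The plot of library medians gives the course of the set as a whole. On the log2(CPM + 1) scale, the median of the 57 genes lay 2.50 and 2.88 above the day 0 mean in the 2 ovary libraries of day 3, which the choice had used. On day 6, which it had not used, the 3 libraries lay at 2.36, 2.18 and 2.39. On day 12, libraries 2, 3 and 4 lay at 2.51, 2.62 and 2.54, and library 1 at 0.17. On day 15 the 4 libraries were spread out, at 0.15, 1.60, 0.40 and 0.93. On day 18 they lay at 0.52, 0.28 and -0.12, and so overlapped the day 0 libraries, which lay between -0.19 and 0.14. The high level on day 3 follows from the choice and is no result. On day 12, all libraries but 1 lay above all day 6 libraries, and the choice had used neither day. All day 18 libraries lay below all day 6 libraries. In the endometrium the library medians stayed between -0.08 and 0.20 on all 7 days, and in the oviduct between -0.34 and 0.57.

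The members did not all peak on the same day. The choice had used days 3 and 9, so the numbers of this paragraph describe it in part and were not tested. The highest mean fell on day 3 in 27 of the 57 genes, on day 6 in 7, on day 9 in 14 and on day 12 in 9. Without library 1 of day 12 the numbers were 20, 6, 12 and 19, and without it the day 12 mean was above the day 6 mean in 32 genes. The largest excess of day 3 over day 9 was that of ENSSSCG00000003053, at 61.4 and 39.0 CPM on day 3 against 9.73, 8.95 and 3.34 CPM on day 9. It was 1 of 6 genes with a day 3 mean at least 2 times that of day 9.

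From day 6 to day 18 the set fell in the ovary. Day 6 lies between days 3 and 9, on which the choice had asked for a high level. A fall from day 6 was therefore partly built in, and shares over all genes are no even measure for it. edgeR's quasi-likelihood test called 38 of the 57 genes lower on day 18 (adjusted p under 0.05 over 15638 genes tested) and none higher, where 7.37% of all genes tested were lower and 5.16% higher. The fitted log2 fold change was below 0 in all 57 genes, with a median of -2.51, against a median of 0.09 over all genes tested. In 45 of the 57 genes all day 18 libraries lay below all day 6 libraries, against 9.43% of all genes tested. On day 18 the mean was under 0.5 of the day 6 mean in 53 genes and under 0.25 of it in 35. The number called rested on few libraries. It was 18, 19 and 19 without library 1, 2 or 3 of day 6, 23 without library 2 of day 18, and 2 (POLK and ZFP92) without library 3 of day 18. Shares over all genes are not given for these fits. The median log2 fold change was between -2.29 and -2.67 in each of those fits. The summed luteal markers also went down, from 8397, 9378 and 11568 CPM on day 6 to 647.3, 1111 and 4877 CPM on day 18. CYP11A1 and SCARB1 made up most of that sum, LHCGR did not fall, and edgeR called none of the 3 between these days. The part of luteal markers in the fall of the set was not tested. The 4 smooth muscle markers summed to 475.9 to 1294 CPM on day 6 and 1322 to 3360 CPM on day 18, the 2 granulosa markers to 338.7 to 677 and 33.6 to 4376 CPM, and the 3 macrophage markers to 46.0 to 52.3 and 39.1 to 333 CPM, and the 2 markers of oviduct epithelium to 189 to 671 and 12.3 to 60.2 CPM, and their part was not tested either. OVGP1, one of those 2, was called lower by DESeq2 and did not pass in edgeR (-4.46 ± 1.54 (SE, adjusted p = 0.063)). The 58 genes chosen by the same ratios but with a later rise, of which 57 were tested, gave 33 lower and a median of -2.69.

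**Figure D2:**
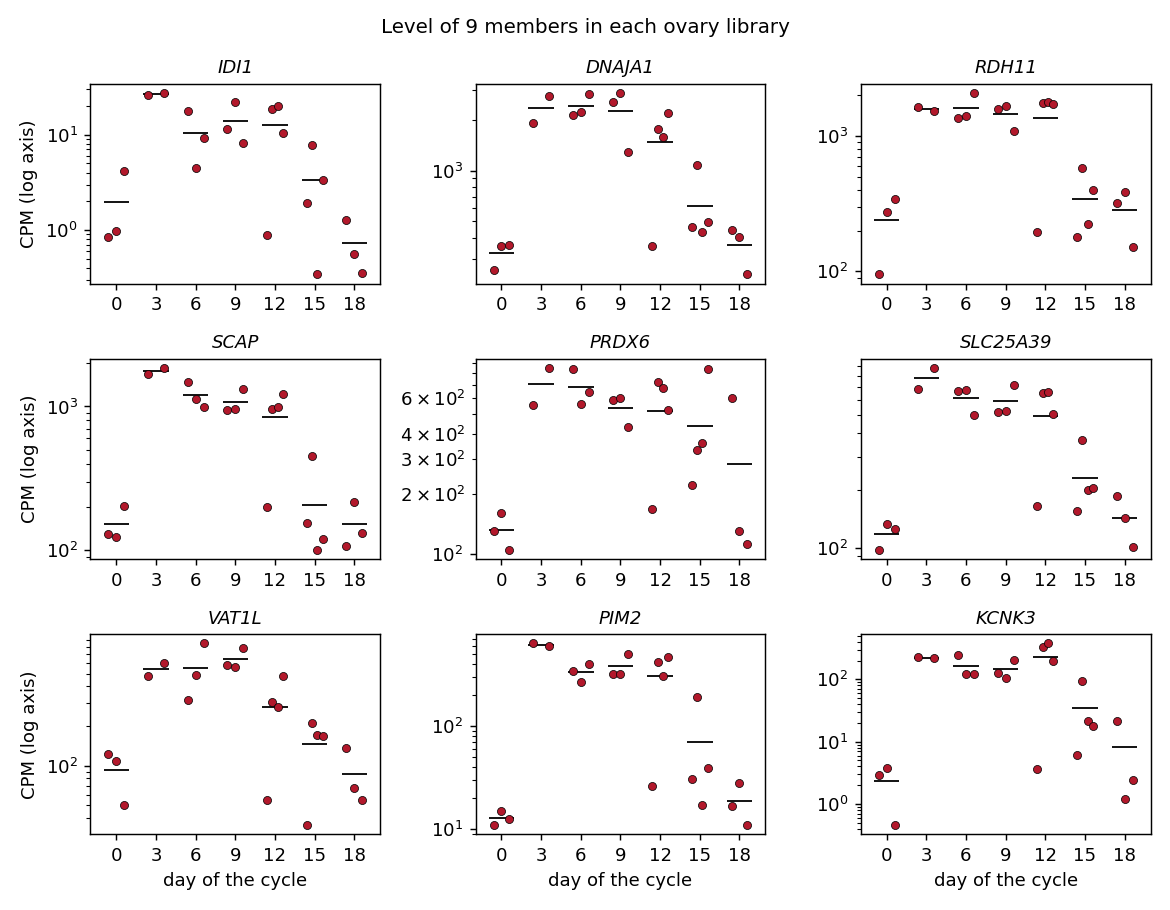
CPM (vertical, log axis) of 9 members in each ovary library, by day of the cycle (horizontal axis), with a bar at the mean of the day. SCAP lies between 990.1 and 1489 CPM on day 6 and between 107 and 217 CPM on day 18.

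Several members act on sterols, retinoids and other lipids. SCAP is the sterol sensor that escorts the transcription factor SREBP from the endoplasmic reticulum, and SREBP switches on cholesterol synthesis. SCAP stood at 129.6, 123 and 203 CPM on day 0, at 1682 and 1849 CPM on day 3 and at 943, 957 and 1328 CPM on day 9. Its day 6 libraries held 1489, 1123 and 990.1 CPM and its day 18 libraries 107, 217 and 132 CPM. The day 18 values lay within or near the day 0 range and far below day 6, with a log2 fold change of -3.38 ± 0.64 (SE, adjusted p = 0.0098). On day 15 library 2 held 455 CPM and the other 3 between 101 and 156 CPM. IDI1, an isomerase of the mevalonate pathway, was scarce, at 17.8, 4.44 and 9.33 CPM on day 6 and 1.26, 0.56 and 0.36 CPM on day 18, which did not overlap, and its log2 fold change was -4.11 ± 1.12 (SE, adjusted p = 0.028). RDH11, a retinol dehydrogenase, held 1345, 1402 and 2083 CPM on day 6 and 319.8, 383 and 151 CPM on day 18, a log2 fold change of -2.84 ± 0.72 (SE, adjusted p = 0.023). Its day 12 libraries 2, 3 and 4 were nearly alike, at 1751, 1777 and 1724 CPM, and library 1 held 194 CPM. ACSS2, which makes acetyl-CoA from acetate, was lower in all day 18 libraries (26.5, 21.5 and 40.1 CPM) than in all of day 6 (160.1, 53.5 and 74.7 CPM), but its log2 fold change of -2.07 ± 0.79 (SE, adjusted p = 0.085) did not pass the test. SELENOI, of phosphatidylethanolamine synthesis, overlapped between day 6 (17.8, 21.8 and 31.1 CPM) and day 18 (46.6, 11.4 and 6.49 CPM).

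DNAJA1, a co-chaperone of HSP70, held 256, 356 and 363 CPM on day 0 and 1913 and 2776 CPM on day 3. It then held 2136, 2211 and 2844 CPM on day 6, 2561, 2887 and 1293 CPM on day 9, and 444, 403 and 243 CPM on day 18. Day 18 was back in the range of day 0 or close to it, and its log2 fold change from day 6 was -3.05 ± 0.59 (SE, adjusted p = 0.011). On day 15 library 2 held 1075 CPM and the other 3 between 431 and 496 CPM. FOXRED2, a flavoprotein of the endoplasmic reticulum with a role in the disposal of misfolded proteins, was highest on day 3 (454 and 310.4 CPM) and fell from 118, 164 and 102 CPM on day 6 to 23.4, 46.1 and 40.8 CPM on day 18, by 2.20 on the log2 scale.

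Of the members of mitochondria and redox metabolism, SLC25A39, the mitochondrial carrier of glutathione, held 666, 677 and 495 CPM on day 6 and 187, 144 and 101 CPM on day 18, a log2 fold change of -2.42 ± 0.51 (SE, adjusted p = 0.012). RUNDC3A lies beside SLC25A39 in the RefSeq gene order, and it is not known whether strand was used in counting, so reads at the border of the 2 genes cannot be assigned. RUNDC3A rose from 6.97, 5.59 and 1.28 CPM on day 0 to 108 and 90.1 CPM on day 3, and its change from day 6 to day 18 did not pass the test, at -1.49 ± 0.60 (SE, adjusted p = 0.10). PRDX6, a peroxiredoxin that also has phospholipase activity, held 844, 560.4 and 648 CPM on day 6 and 605, 131 and 112 CPM on day 18. Library 1 of day 18 was inside the day 6 range and the other 2 were below it, and the log2 fold change was -1.51 ± 0.71 (SE, adjusted p = 0.15). ALDH5A1, which oxidises a breakdown product of GABA, fell from 36.7, 33.7 and 56.7 to 10.7, 15.03 and 5.42 CPM (log2 fold change -2.37 ± 0.57 (SE, adjusted p = 0.018)). GLDC, of the glycine cleavage system, was lower in each library of day 18 than in each of day 6, at 14.3, 5.78 and 7.28 CPM on day 6 and 5.65, 2.43 and 0.80 CPM on day 18, and did not pass at -1.88 ± 1.02 (SE, adjusted p = 0.21).

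Among kinases, receptors and other signalling proteins, PIM2, a serine/threonine kinase that favours cell survival, stood at 10.9, 14.9 and 12.4 CPM on day 0 and at 634 and 602 CPM on day 3. It held 341, 267 and 400.5 CPM on day 6 and 16.7, 28.2 and 11.02 CPM on day 18. The days did not overlap, and its log2 fold change of -4.54 ± 0.94 (SE, adjusted p = 0.012) was the third largest fall among the members. S1PR5, a receptor for sphingosine 1-phosphate, fell from 62.9, 36.3 and 35.7 to 11.7, 7.56 and 7.20 CPM (log2 fold change -2.67 ± 0.72 (SE, adjusted p = 0.027)). PKIG, an inhibitor of protein kinase A, fell from 172, 169.6 and 218 to 45.9, 40.4 and 32.7 CPM, but its day 15 libraries held 129, 105, 34.5 and 179 CPM, so 1 of the 4 lay inside the day 6 range. FRS2, an adaptor of fibroblast growth factor receptors, fell from 57.6, 74.4 and 116 to 12.7, 34.6 and 9.24 CPM. RGCC, a regulator of the cell cycle, fell from 206, 183 and 217 to 47.7, 11.4 and 20.5 CPM. For PKIG, FRS2 and RGCC the log2 fold changes were -2.56, -2.52 and -3.19, and all 3 passed. ADGRG3, an adhesion G protein-coupled receptor, was scarce and uneven on day 6, at 5.13, 22.7 and 11.4 CPM, and day 18 lay on both sides of it, at 13.7, 0.93 and 1.78 CPM.

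Of the channels and pumps, KCNK3, a background potassium channel, went from 2.88, 3.81 and 0.46 CPM on day 0 to 228 and 218 CPM on day 3, the largest day 9 to day 0 ratio of the set at 43.5. Its day 6 libraries held 246, 120.4 and 122 CPM and its day 18 libraries 21.5, 1.21 and 2.40 CPM, a log2 fold change of -4.47 ± 1.38 (SE, adjusted p = 0.043). Libraries 2, 3 and 4 of day 12 held 329, 378 and 198 CPM, while library 1 held 3.64 CPM, about as on day 0. CACNA2D2, an accessory subunit of calcium channels, fell from 44.7, 94.3 and 133 to 24.6, 9.99 and 5.42 CPM (log2 fold change -3.01 ± 0.78 (SE, adjusted p = 0.023)). ATP2B3, a calcium pump of the plasma membrane, held 6.59, 14.3 and 21.8 CPM on day 6 and 2.08, 11.01 and 1.42 CPM on day 18, and did not pass at -1.97 ± 0.65 (SE, adjusted p = 0.053). CNNM2, of magnesium transport, did not follow the others late in the cycle. It held 40.8, 76.05 and 78.3 CPM on day 6, 30.6, 54.8, 120.1 and 209 CPM on day 15 and 119.9, 43.3 and 28.6 CPM on day 18, so days 15 and 18 both overlapped day 6, and its log2 fold change from day 6 to day 18 was -0.28 ± 0.70 (SE, adjusted p = 0.81).

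Of the actin-binding members, PLS1 fell from 44.2, 32.8 and 52.5 to 13.8, 6.72 and 5.15 CPM (log2 fold change -2.62 ± 0.65 (SE, adjusted p = 0.021)). CORO2B, a coronin, held 102, 145 and 151 CPM on day 6 and 96.04, 30.6 and 38.3 CPM on day 18, and did not pass at -1.54 ± 0.62 (SE, adjusted p = 0.10). The secreted metalloprotease ADAMTS9 fell from 136, 249 and 174 to 52.7, 47.9 and 27.3 CPM (log2 fold change -2.46 ± 0.57 (SE, adjusted p = 0.016)). The RNA-binding protein RBM47 and the translesion DNA polymerase POLK fell by 2.07 and 2.28 on the log2 scale. Among members whose role is left unstated here, VAT1L (-2.95 ± 0.77 (SE, adjusted p = 0.024)), SLC35F5 (-2.43 ± 0.76 (SE, adjusted p = 0.045)), TMEM254 (-1.99 ± 0.53 (SE, adjusted p = 0.027)), TMEM52 (-2.43 ± 0.62 (SE, adjusted p = 0.023)) and the zinc finger gene ZFP92 (-3.34 ± 0.57 (SE, adjusted p = 0.0075)) passed, and IQUB (-1.35 ± 0.74 (SE, adjusted p = 0.22)) did not.

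Of the 24 members without a symbol, 15 passed the test between day 6 and day 18, all lower. The 2 largest falls of the whole set were among them. ENSSSCG00000003053 held 11.97, 9.90 and 14.6 CPM on day 6, and on day 18 library 1 held 0.39 CPM while libraries 2 and 3 held no read, so its fitted log2 fold change of -6.41 depends on the value added by the fit. ENSSSCG00000011685 went from 31.6, 37.5 and 31.6 to 2.23, 0.28 and 0.71 CPM, a log2 fold change of -5.19 ± 1.49 (SE, adjusted p = 0.033). ENSSSCG00000000544 went from 209.5, 85.4 and 116 to 17.1, 10.5 and 3.55 CPM (log2 fold change -4.01 ± 0.95 (SE, adjusted p = 0.018)). ENSSSCG00000020738, among the 8 members with the highest CPM on day 6, went from 691, 360.4 and 392 to 107, 33.1 and 19.5 CPM (log2 fold change -3.43 ± 0.98 (SE, adjusted p = 0.033)). ENSSSCG00000003764, another of those 8, went the other way in 1 library. It held 553, 509 and 378 CPM on day 6 and 1038, 42.6 and 107 CPM on day 18, with library 1 above all of day 6 and libraries 2 and 3 below, and its log2 fold change was -0.46 ± 1.09 (SE, adjusted p = 0.80).

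The fall could be placed in time only loosely. Between day 6 and day 12 edgeR called none of the 57 genes, and none of the 15638 genes tested (0%). Without adjustment 2 members and 1229 genes had p under 0.05, and DESeq2 also called none of the members. The median log2 fold change of the members was -0.09, and it was 0.31 without library 1 of day 12. Without library 4 of day 12, 1 member was called lower. In library 1 of day 12, 55 of the 57 genes lay below all day 6 libraries, against 18.8% of all genes tested. In libraries 2, 3 and 4 of day 12 the numbers were 16, 14 and 10, against 30.8%, 32.2% and 26.2% of all genes. Between day 12 and day 15 edgeR called none of the 57 genes, against 0.00639% of all genes called lower and 0.0192% called higher, although 39 members had an unadjusted p under 0.05, as did 3344 of the 15638 genes tested, and 56 members had a log2 fold change below 0. DESeq2 called 28 members lower in that comparison, against 4.46% of all genes. Without library 1 of day 12 edgeR called 38 members lower and none higher, against 9.55% of all genes lower and 8.04% higher, and without library 2 of day 15 it called 25 lower, against 3.72% of all genes. The median log2 fold change was -1.72 with all libraries and -2.07 without library 1 of day 12. In 40 of the 57 genes, the 4 libraries of day 15 lay below libraries 2, 3 and 4 of day 12, against 6.74% of all genes tested. Between day 15 and day 18 edgeR and DESeq2 called none of the members, 4 had an unadjusted p under 0.05, and edgeR called no gene at all (0%, with 870 at an unadjusted p under 0.05). The median there was -0.76.

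The 4 libraries of day 15 differed more among themselves than those of any earlier day except day 12. Relative to the day 6 mean, the median member stood at 53.6% in library 2, at 31.2% in library 4, at 20.04% in library 1 and at 19.9% in library 3. The summed luteal markers stood at 5717, 6456, 538.1 and 2305 CPM in libraries 2, 4, 1 and 3. Libraries 2 and 4 stood above libraries 1 and 3 on both measures, while the order of libraries 2 and 4 differed. A link between the measures was not tested. SELENOI, CNNM2 and PRDX6 stood higher in libraries 3 and 4 of day 15 than in libraries 1 and 2, unlike the set as a whole. CNNM2, for instance, held 120.1 and 209 CPM in libraries 3 and 4 and 30.6 and 54.8 CPM in libraries 1 and 2.

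**Figure D3:**
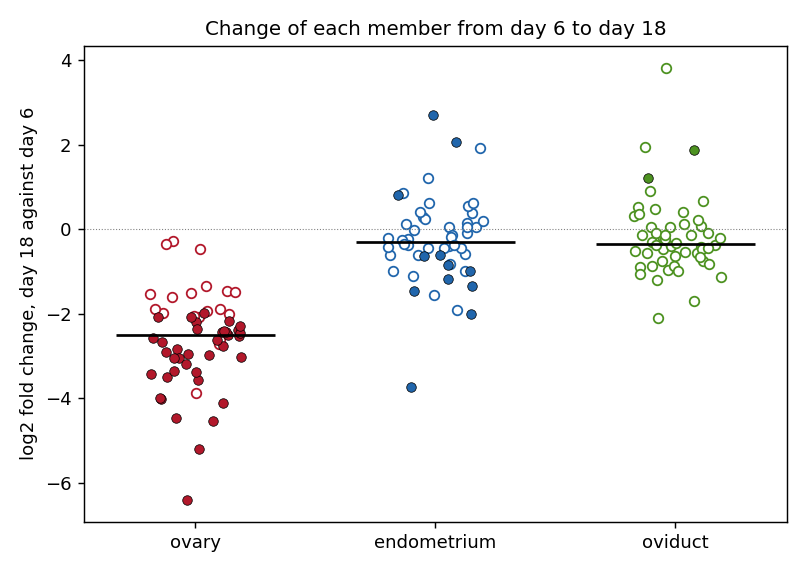
Log2 fold change from day 6 to day 18 (vertical axis) of each member tested, in the ovary, endometrium and oviduct. Filled points passed the test at an adjusted p under 0.05, and bars mark the medians, which are -2.51, -0.29 and -0.35.

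In the endometrium and the oviduct the same days gave smaller changes. In the endometrium 52 members had enough counts to be tested, of which 9 were lower and 3 higher on day 18, against 11.7% of all genes lower and 11.8% higher, and their median log2 fold change was -0.29. Leaving out any 1 of the 6 endometrium libraries of days 6 and 18 brought the number called to between 4 and 6. ATP2B3 fell there from 9.71, 4.81 and 1.96 to 0.53, 0.53 and 0.26 CPM (log2 fold change -3.74 ± 0.55 (SE, adjusted p = 0.00031)). PLS1, which bundles actin in microvilli, fell from 1595, 1954 and 1038 to 730.0, 626 and 599 CPM (log2 fold change -1.35 ± 0.27 (SE, adjusted p = 0.0023)). TMEM52, GLDC, FOXRED2, SCAP, PIM2, SLC25A39 and ENSSSCG00000025258 were the other members that fell, by 0.62 to 2.01 on the log2 scale. ENSSSCG00000000544, ENSSSCG00000003764 and ENSSSCG00000024602 rose there, by log2 fold changes of 2.71, 2.06 and 0.82. In the oviduct 2 of 52 members tested were higher and none lower, against 4.17% and 1.3% of all genes, and the median was -0.35. They were VAT1L, from 35.8 and 36.1 to 86.5, 120.5 and 116 CPM, and ENSSSCG00000020738, from 33.03 and 37.03 to 60.7, 67.1 and 71.7 CPM. No member was called there without library 2 or 3 of day 6 or library 2 of day 18, and 4 were called without library 1 or 3 of day 18.

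Whether the change from day 6 to day 18 differed between tissues was tested directly, as an interaction in a fit over all 66 libraries. Against the endometrium, 31 of the 57 genes had a more negative change in the ovary and none a more positive one, where 7.71% and 9.18% of all genes did so. Against the oviduct the numbers were 28 and 0, where 11.1% and 11.7% of all genes did so, and 18 without library 2 of oviduct day 6. The medians of the difference were -2.35 and -2.17 on the log2 scale, while the medians over all genes were 0.09 and 0.20. Of the 58 genes with a later rise, 30 and 25 had a more negative change, with medians of -2.92 and -2.52. This difference was therefore not particular to the early set. It was also partly built in, as the choice asked for a rise in the ovary alone, so the shares over all genes are no even measure. All 31 and all 28 were among the 52 members with enough counts to be tested within the endometrium and within the oviduct, where the medians of the difference were -2.34 and -2.07. The other 5 in each case had too few counts there and entered this fit only through other tissues. These 2 tests share the ovary libraries. The methods give 3 gilts a day for all 3 tissues, so libraries of different tissues may come from the same gilt, which this fit did not use. KCNK3 differed by -6.36 ± 1.55 (SE, adjusted p = 0.0036) from the endometrium and by -3.83 ± 1.39 (SE, adjusted p = 0.041) from the oviduct. PIM2 differed by -3.67 ± 0.79 (SE, adjusted p = 0.0011) and -4.67 ± 0.88 (SE, adjusted p = 0.00021). DNAJA1 differed by -2.91 ± 0.63 (SE, adjusted p = 0.0012) and -3.43 ± 0.69 (SE, adjusted p = 0.00046). SCAP, which fell in the endometrium too, still differed, by -2.73 ± 0.54 (SE, adjusted p = 0.00043) and -3.08 ± 0.59 (SE, adjusted p = 0.00026). For IDI1 the difference from the oviduct passed, at -5.97 ± 1.34 (SE, adjusted p = 0.0013), and that from the endometrium did not, at -3.12 ± 1.17 (SE, adjusted p = 0.058). For PLS1 neither passed, at -1.27 ± 0.64 (SE, adjusted p = 0.17) and -1.39 ± 0.68 (SE, adjusted p = 0.13).

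**Figure D4:**
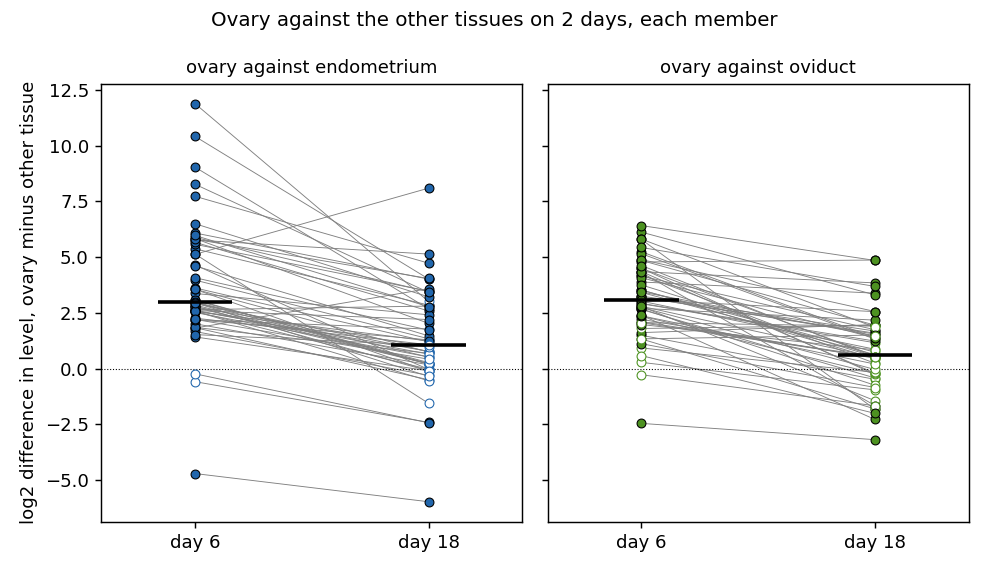
Log2 difference in level between the ovary and the endometrium (left) or oviduct (right) on days 6 and 18, with a line for each member and a thick bar at the median. Filled points passed the test at an adjusted p under 0.05. The medians go from 2.97 to 1.05 and from 3.09 to 0.63.

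The rule set no condition on the level in one tissue against another. It did ask for a rise in the ovary, and with 1 added to the mean CPM, genes scarce in another tissue passed as flat there. A higher ovary level on day 6 was therefore partly built in, and shares over all genes are no even measure for it. On day 6, 54 of the 57 genes were higher in the ovary than in the endometrium and 1 was lower, where 21.5% of all genes were higher and 25.2% lower. Against the oviduct 49 were higher and 1 lower, where 21.8% and 26.1% were. The median differences were 2.97 and 3.09 on the log2 scale. On the same day, of the 58 genes with a later rise, 46 were higher than in the endometrium and 43 higher than in the oviduct. Among the 52 members with enough counts to be tested within the other tissue, 49 were higher than in the endometrium and 44 higher than in the oviduct, with medians of 2.89 and 2.92. The gene that was lower than in the endometrium was PLS1, with 1595, 1954 and 1038 CPM there and 44.2, 32.8 and 52.5 CPM in the ovary (log2 difference -4.70 ± 0.52 (SE, adjusted p = 3.5e-10)). The gene that was lower than in the oviduct was IQUB, at 24.2 and 29.5 CPM there and 1.87, 4.04 and 3.94 CPM in the ovary (log2 difference -2.45 ± 0.57 (SE, adjusted p = 0.00044)). RBM47 did not differ detectably from either tissue (log2 differences -0.58 ± 0.46 (SE, adjusted p = 0.31) and 0.28 ± 0.52 (SE, adjusted p = 0.68)). At the other end, ENSSSCG00000011685 had no read in the 3 endometrium libraries and was at least 117-fold higher in the ovary, taking 3 counts in each library as the limit. KCNK3 held 0.21, 0.28 and 0.71 CPM in the endometrium and 6.21 and 7.37 CPM in the oviduct. VAT1L, CORO2B and S1PR5 were above the endometrium by log2 differences of 7.73, 6.08 and 6.50.

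On day 18 fewer genes stood above the other tissues. Against the endometrium 22 were higher and 3 lower in the ovary, where 17.6% and 16.4% of all genes were, with a median difference of 1.05. Against the oviduct 17 were higher and 5 lower, where 22.2% and 21.1% were, with a median of 0.63. Among those same 52 members the numbers higher were 19 and 15. DNAJA1 and SCAP no longer differed detectably from the endometrium, at -0.10 ± 0.44 (SE, adjusted p = 0.89) and 0.23 ± 0.37 (SE, adjusted p = 0.67). PIM2 was lower than in the oviduct by then, at -2.28 ± 0.57 (SE, adjusted p = 0.0011). VAT1L stayed above the endometrium, at 4.73 ± 0.63 (SE, adjusted p = 6.9e-08), and did not differ detectably from the oviduct, at -0.26 ± 0.52 (SE, adjusted p = 0.72). RDH11, S1PR5, RGCC, ADGRG3, CNNM2, CORO2B, RUNDC3A, TMEM52, ENSSSCG00000003764, ENSSSCG00000010749 and ENSSSCG00000021789 passed the test above both tissues on day 18 as well as on day 6.

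**Figure D5:**
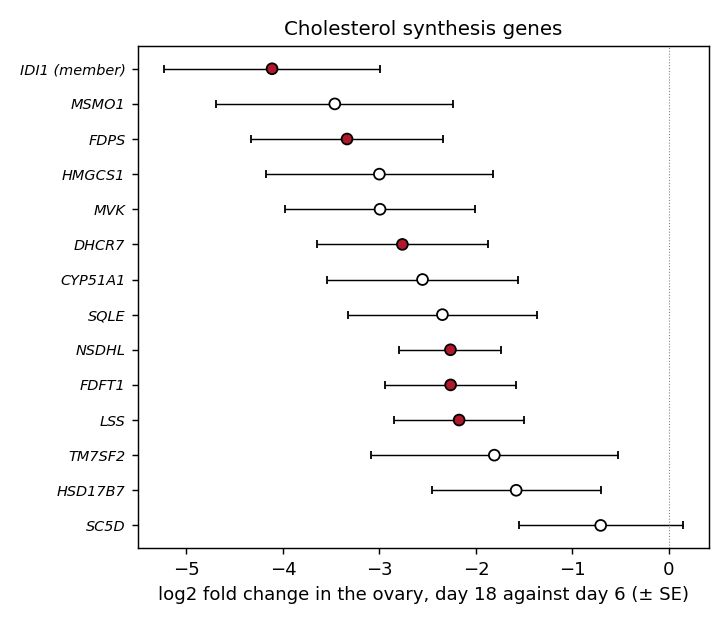
Log2 fold change in the ovary from day 6 to day 18 (horizontal axis, bars are SE) of 14 genes of cholesterol synthesis. Filled points passed the test at an adjusted p under 0.05. IDI1 is the only member, and the 13 others lie between -3.46 and -0.71.

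IDI1 and SCAP belong to a pathway whose other genes can be read beside them. Of 17 listed genes of cholesterol synthesis 14 were found in the table, and IDI1 was the only member among them. From day 6 to day 18, 5 of the other 13 were lower in the ovary, none was higher, and 8 did not pass. Of all genes tested 7.37% were lower and 5.16% higher. The median log2 fold change of the 13 was -2.35. Without adjustment 10 of the 13 had p under 0.05 in edgeR, as did 5014 of the 15638 genes tested. DESeq2 called 10, and its share over all genes is not given here. FDPS, which makes farnesyl diphosphate, held 1369.7, 729 and 903 CPM on day 6 and 246, 64.7 and 39.01 CPM on day 18, which did not overlap, a log2 fold change of -3.34 ± 0.9995 (SE, adjusted p = 0.039). FDFT1, the squalene synthase, held 422, 286 and 306 CPM on day 6 and 119, 91.8 and 52.5 CPM on day 18, a log2 fold change of -2.26 ± 0.68 (SE, adjusted p = 0.039). LSS, NSDHL and DHCR7 also fell, by 2.17 to 2.76 on the log2 scale. In 6 of these 13 genes the ovary met both conditions of the rule, a ratio of at least 4 and an early rise. They were left out because their day 9 to day 0 ratio was outside the range of 0.5 to 2 in the endometrium (5 genes) or the oviduct (3 genes, 2 of them shared). FDPS, for instance, had a ratio of 4.97 in the ovary, 18.8 in the endometrium and 0.64 in the oviduct. IDI1 was scarce in the endometrium, with 1, 14 and 5 counts on day 0 and 18, 30 and 14 counts on day 9. It passed as flat there with 1 added to the mean CPM, and met the rule in 18 of the 22 other settings. IDI1 is therefore not shown to differ from the other genes of the pathway in the endometrium.

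Other lists, which mix luteal genes with genes of follicles and vessels, were counted the same way. Over all genes tested, 7.37% were lower and 5.16% higher on day 18, and 5014 of 15638 had an unadjusted p under 0.05. For DESeq2 the share over all genes is not given here. Of 10 genes of cholesterol uptake, storage and transfer 2 were lower on day 18, the lysosomal cholesterol transporter NPC1 (-1.97 ± 0.58 (SE, adjusted p = 0.037)) and the lipase LIPE (-1.89 ± 0.56 (SE, adjusted p = 0.037)), while 5 had an unadjusted p under 0.05 and DESeq2 called 4. In steroid synthesis none of 6 genes passed in edgeR, 3 had an unadjusted p under 0.05, and DESeq2 called 1, FDXR, which passes electrons to mitochondrial steroid enzymes (-2.22 ± 0.78 (SE, adjusted p = 0.068) in edgeR). Among 11 genes of luteinising hormone and prostaglandin signalling, PTGES (-3.87 ± 1.02 (SE, adjusted p = 0.025)), a prostaglandin E synthase, and PGRMC1 (-2.16 ± 0.68 (SE, adjusted p = 0.045)) were lower, and the prolactin receptor PRLR was called higher, at 0, 0.16 and 0.15 CPM on day 6 and 4.54, 9.80 and 0.62 CPM on day 18. No day 6 library held more than 2 counts of PRLR, so no fold is given. In that list 7 genes had an unadjusted p under 0.05 and DESeq2 called 6. Of 8 genes of vessel growth the receptor KDR was lower (-1.46 ± 0.42 (SE, adjusted p = 0.035)) and DESeq2 called 2, and of 6 peptide hormone and binding protein genes tested IGF1 (1.03 ± 0.30 (SE, adjusted p = 0.036)) and IGFBP5 (2.70 ± 0.83 (SE, adjusted p = 0.043)) were higher and DESeq2 called 3. None of 34 marker genes tested, from 11 lists for ovarian, vascular, immune, muscle, oviduct, blood and dividing cells, passed in edgeR, where the adjusted p ran from 0.051 to 0.999 and 8 had an unadjusted p under 0.05. DESeq2 called 8 of them, SCARB1 and OVGP1 lower and FSHR, INSL3, ZP2, CD68, CSF1R and CD2 higher. In the ovary as a whole CYP11A1 held 4895, 4635 and 3866 CPM on day 6 and 2624, 415 and 291 CPM on day 18, and SCARB1 6596, 4723 and 4512 and 2232, 481 and 319 CPM. Library 1 of day 18 was the highest of its day for both. LHCGR held 20.98, 215 and 37.9 CPM on day 18 against 77.6, 19.96 and 18.96 CPM on day 6, highest in library 2, where INHA stood at 4297 CPM.

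The edge of the set was not sharp. Just inside the limit of 4 in the ovary lay PRDX6 at 4.06, ENSSSCG00000023898 at 4.07 and TMEM254 at 4.08, and just outside it WDR35 at 3.96, ENSSSCG00000006286 at 3.94 and LRATD2 at 3.92. On the day 3 share of day 9, CNNM2 was the nearest inside at 0.505 and RASGRP1 the nearest outside at 0.495. With library sizes scaled by TMM the same rule took 95 genes, of which 51 were among the 57. Leaving out 1 library in turn it took 52 to 78, most without library 3 of ovary day 0 (78) and library 2 of ovary day 0 (73), and 23 of the 57 genes met it under every one of the 22 other settings. Members near the limits, PRDX6 and CNNM2 among them, are therefore members only narrowly.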

How the data were processed

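The file was a table of raw read counts per gene for 66 libraries, deposited by the authors with no normalization. They sequenced poly(A) RNA as paired ends, trimmed the first 13 bases and aligned the reads with TopHat2 to pig genome build Sscrofa10.2 with Ensembl genes. The submitters' processing notes name featureCounts, edgeR, Cufflinks and Cuffdiff without versions, and which tool and strand setting made the table is not given in the sources used here. Columns name tissue, day and a library number that matches no sample title exactly, so libraries were placed by tissue and day. The labels list 67 samples, and 1 endometrium sample of day 12 had no column and was not analysed here. The study's methods give 3 gilts a day for all tissues, fewer than the 4 ovary libraries of day 12 and of day 15, so whether all libraries of a day came from separate gilts is not known, and p-values measure only the spread between these libraries. No 2 libraries of a group agreed within sampling noise.

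The members, lists and tests were chosen with earlier results of these data known. Counts were tested with edgeR 4.0.16 (TMM, filterByExpr, glmQLFit and glmQLFTest, robust) in R 4.3.3, with 1 fit per tissue over all days, and 1 fit over all 66 libraries for contrasts between tissues. P-values were Benjamini-Hochberg adjusted over all genes tested, called at 0.05, and SE is the fold change over the root of F. DESeq2 1.42.0 was an alternative. The scripts were tested on simulated data. At these depths 3 counts equal 0.22 to 0.33 CPM, and such limits cover counting error only. CPM was not set for gene length, so levels are not compared between genes. Symbols came from a gene name table (11804 identifiers matched). Members described in detail were IDI1, which is on a list, the 8 highest in the ovary on day 6, the 6 largest falls with at least 10 counts in each day 6 library, and those nearest the limits. All other members with a symbol are named whatever their values. POLK, ZFP92 and the members singled out in the endometrium, the oviduct and on day 15 were named after their values were seen. No genome or promoter sequences were used here, so the planned search for promoter motifs was not run. Some genes of the lists are not reported here and were left out of the list counts.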

Additional observations from a re-analysis of the deposited data

Results flagged for a closer look

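Values that lay far from the others of a group of 4 libraries, by Dixon's 95% limit of 0.829, were found in 5 of 37 groups of 4 values that were looked at. All 5 lay in library 1 of ovary day 12 or library 2 of ovary day 15. Values of different genes in the same libraries are not independent, so the number was not set against chance. In library 1 of ovary day 12 the median of the 57 genes was 0.17 above day 0 on the log2(CPM + 1) scale, against 2.51 to 2.62 in the other 3, and RDH11 stood at 194 CPM there. Library 2 of ovary day 15 was the high value for DNAJA1 (1075 CPM), SCAP (455.5 CPM) and PIM2 (192 CPM).

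The change from day 6 to day 18 differed between the ovary and another tissue by an interaction test in 31 members against the endometrium and in 28 against the oviduct. Such a difference was partly built in by the choice. Among the 4 members with the largest falls, PIM2 differed by -3.67 from the endometrium and -4.67 from the oviduct on the log2 scale, and KCNK3 by -6.36 and -3.83.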

How the results depend on the processing

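Leaving out 1 library in turn, the number of members called ran from 2 to 32 for ovary day 18 against day 6 (38 with all libraries), from 0 to 1 for day 12 against day 6, from 0 to 38 for day 15 against day 12, and was 0 throughout for day 18 against day 15. It ran from 4 to 6 for the endometrium (12 with all), from 0 to 4 for the oviduct (2 with all), from 23 to 34 and from 18 to 33 for the differences of the ovary's change from the endometrium's and the oviduct's, from 51 to 54 and from 44 to 50 for ovary levels against the same tissues on day 6, and from 18 to 26 and from 16 to 24 on day 18. Shares over all genes are not given for these fits. The rule itself took 52 to 78 genes.

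The other settings moved few counts by over 1.5 times. DESeq2's Wald test called 28 members for ovary day 15 against day 12 and 6 for the oviduct. With no filter on low counts 7 members were called in the endometrium. With only the groups compared in the fit, 0 were called in the oviduct, and 13 for ovary against oviduct on day 18, against 22. TMM scaling gave 95 members and an added value of 0.5 gave 61. As a further setting, the replicate number was a block within a tissue, and day and number together were a block in fits over all 66 libraries. With these blocks 7 members were called in the endometrium and 35 for ovary day 18 against day 6, and no other count moved by over 1.5 times. The labels do not say that the numbers pair samples. Deviations of same-numbered libraries of 1 day correlated by -0.035 to 0.20 between ovary and endometrium and by -0.11 to 0.28 between ovary and oviduct (21 pairs each, medians 0.12 and 0.12). Not every pair was over 0.1, so the numbers were not taken as pairs in the main fits, although tissues may share gilts. The cause of these differences was not tested, except that fewer samples or genes entered some fits.

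Library 1 of ovary day 12 was also left out of the fit, a choice made after seeing the data. The shares over all genes are not given for this setting. Then 44 members were lower on day 18 than on day 6, and 48 without day 15 as well. For the 16 members named by rule, 160 of 208 other fits of that change kept the direction and the side of the threshold, 45 kept only the direction, and 1 passed where it had not. ENSSSCG00000003764 turned its direction, to 0.080 and 0.0097 on the log2 scale without library 2 or 3 of day 18, and stood at -3.14 without library 1. With 3 counts equal to 0.22 CPM or more, and 2 to 4 libraries a group, changes of members below about 1 CPM may have been missed. The level needed to detect a change was not tested.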
